A study of Mus musculus with 24 samples.

Results

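The 38 genes described here mark the macrophages of the brain and the complement proteins. They were chosen by name, and the probe sets of each gene were averaged. Of the 38 genes, 36 had at least 1 probe set of their own (62 probe sets), out of 18193 genes on the arrays: 27 microglia genes, 5 genes of border macrophages (Mrc1, Cd163, Lyve1, Lyz1 and Lyz2) and 4 complement genes (C1qa, C1qb, C1qc and C3ar1). C4b was not used because it shares its only probe set with C4a, and C3, the central complement component, was not analysed here. RNA came from 4 brain areas, namely amygdala (Amy), hippocampus (Hippo), cerebral cortex (CC) and prefrontal cortex (PFC), of male wild-type C57BL/6 mice. The labels give an age of 6 to 8 weeks, which in the methods is the age at purchase. The brains were taken later, after a rest and the 4 weeks of the experiment. In each area, 3 arrays of mice kept under chronic mild stress (CMS) were set against 3 arrays of control mice, for 24 Affymetrix arrays in all. CMS mice met unpredictable mild stressors, in 1 order for all of them, on 6 days a week for 4 weeks, and control mice met none of these. The titles number the arrays as biological replicates while the methods speak of pooled RNA, so the p-values measure only the spread between these arrays.

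Microglia are the resident macrophages of the brain tissue and depend on signalling through the receptor Csf1r. They survey the tissue with purine and chemokine receptors, take up debris through Trem2 and Fc receptors, and are the main source of C1q, the first component of the classical complement pathway, which tags synapses and debris for removal. Border macrophages live around vessels, in the meninges and in the choroid plexus, and carry the scavenger receptors Mrc1 and Cd163. Lysozyme is made by many myeloid cells, including neutrophils and monocytes.

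Values were deposited on a log2 scale on which each probe set has a median of 0 over the 24 arrays, so a value says how far an array lies above or below that median, and levels cannot be compared between genes. A gene is said to have risen or fallen with CMS where limma gave a Benjamini-Hochberg adjusted p under 0.05 over all 18193 genes of that area, and past the fold where the fold change was also over 2. Genes that mark an area were highest there: Prox1, a transcription factor of hippocampal granule neurons, had mean values of 2.63 in the CMS Hippo and 2.86 in the control Hippo, and Fibcd1, used as another hippocampal gene, had 3.77 and 3.55. Fibcd1 had -1.4 in the CMS Amy and 0.41 in the control Amy, and Prox1 had 0 in the CMS Amy and 0.52 in the control Amy. Rorb, of cortical layer neurons, had 1.35 in the CMS CC and 0.94 in the control CC, near the PFC, at 0.87 in the CMS PFC and 0.78 in the control PFC. Gbx1, used as an Amy gene, had 2.05 in the CMS Amy and 2.84 in the control Amy. Absolute levels are lost in the centring, so the presence of microglia could be read only from differences between arrays.

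CC held the most increases. With CMS, 12 of the 36 genes rose there and 1 fell, against 8 and 0 in PFC, 6 and 0 in Amy, and 3 and 5 in Hippo. Over all genes, 5.95% rose and 3.99% fell in CC, 4.45% and 3.92% in PFC, 10.5% and 8.84% in Amy, and 4.66% and 24.9% in Hippo. Leaving out 1 array left 9 to 14 genes rising in CC and 3 to 5 in PFC, whichever array it was, and 3 to 5 in Amy, with 3 without control replicate 1 or 3. The counts of PFC and Amy then lay in 1 range. In Hippo 1 gene rose without CMS replicate 3 or control replicate 2, and 1 to 3 fell without any array but control replicate 3. The 1 decrease in CC was lost without any array but control replicate 3. Over all genes, 2.44% to 5.73% rose in CC in these fits, 1.48% to 3.13% in PFC and 3.47% to 10.0% in Amy. In Hippo 1.43% to 5.93% of all genes rose and 3.61% to 27.6% fell, and in CC 1.06% to 5.79% fell. With all arrays, the share of the 36 genes that rose was 33.3% in CC, 22.2% in PFC, 16.7% in Amy and 8.3% in Hippo, and these shares are descriptions with no test of the difference from all genes. The median log2 fold change of the 36 genes was 0.29 in CC, 0.14 in PFC, 0.05 in Amy and -0.02 in Hippo, where that of all genes was -0.03, 0.02, 0.02 and -0.05. In bulk RNA, more cells of a type and more RNA per cell cannot be told apart.

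**Figure D1:**
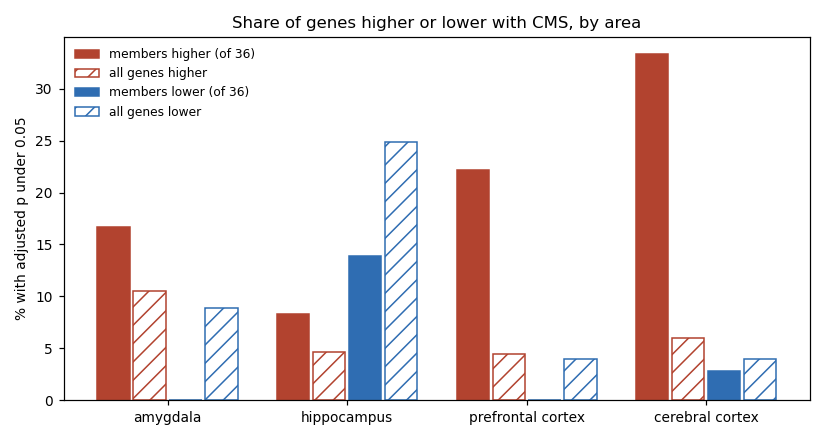
Share of genes (%, vertical axis) with an adjusted p under 0.05 in each area, for the 36 genes (filled bars) and all 18193 genes (hatched bars), higher with CMS in red and lower with CMS in blue. The filled red bar reaches 33.3% in CC, beside 5.95% for all genes, and in Hippo the hatched blue bar reaches 24.9%.

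Lysozyme rose in every area, and Lyz2 was the only gene past the fold. Lyz1 and Lyz2 rose in all 4 areas, Ctss, Fcgr2b and C1qa in 3, and Tyrobp, Fcgr3, Ly86 and Cd53 in 2, while P2ry12, Csf1r, Aif1 and C1qb rose in 1. The other 23 genes rose in none. Of 144 pairs of gene and area, 35 passed the test, and in all 35 the CMS arrays lay clear of the control arrays. This separation was not counted over all genes, so it is no support of its own for the calls. Lyz2 in the PFC and CC made up the 2 pairs past the fold, where 0.154% and 0.192% of all genes were higher past it, and the share was 0.143% in Amy and 0.143% in Hippo, with no gene of the 36.

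**Figure D2:**
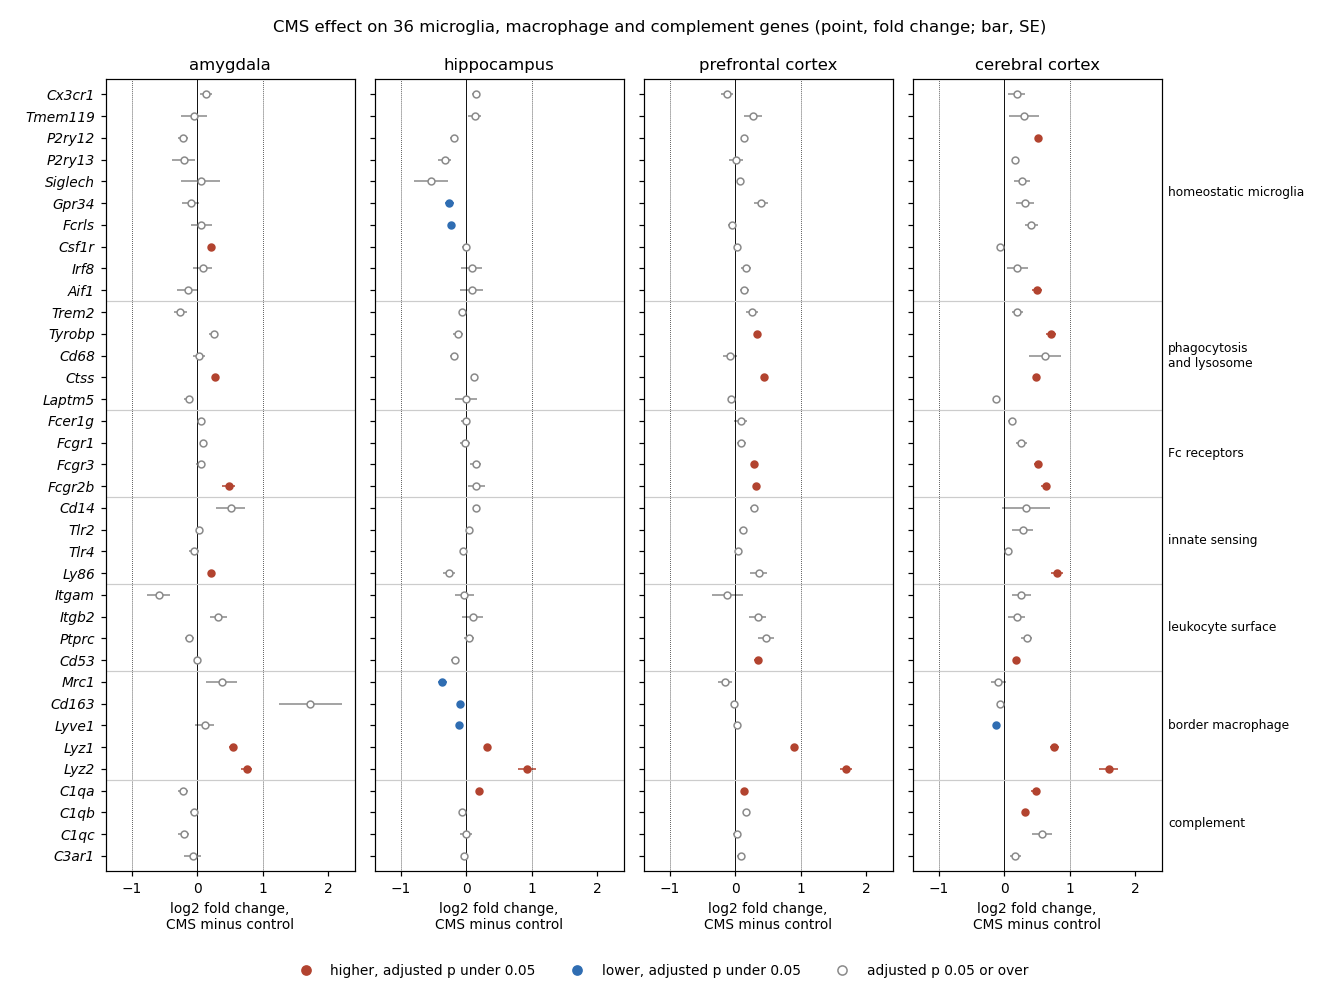
Log2 fold change of CMS over control (horizontal axis, point, with its standard error as a bar) of the 36 genes in each area, grouped by role from top to bottom; filled points have an adjusted p under 0.05 and dotted lines mark a fold of 2. The red points gather in CC (12 genes), the blue ones in Hippo (5 genes), and Lyz2 lies farthest to the right among the filled points.

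Of the 10 genes of homeostatic microglia, those that surveying microglia keep switched on, 2 rose in CC, 1 rose in Amy, 2 fell in Hippo and none passed in PFC. Over all genes 5.95% rose in CC, 10.5% rose in Amy and 24.9% fell in Hippo. The Amy count, at 10.0%, thus lay near the share of all genes, and the Hippo count, at 20.0%, lay below it. P2ry12, the ADP receptor that guides microglial processes, stood at 0.57, 0.58 and 0.64 in the CMS CC, against 0.13, 0.12 and -0.02 in the control CC. The CMS arrays all lay above the controls (log2 fold change 0.52, SE 0.05, adjusted p = 0.00561), and the gene kept this call in all 15 alternative analyses. In Amy its values were 0.7, 0.59 and 0.4 with CMS, against 0.78, 0.74 and 0.83 in controls. There the CMS arrays lay below the controls, without passing the test (log2 fold change -0.22, adjusted p = 0.128). Hippo showed -0.28, -0.28 and -0.3 with CMS, against -0.17, -0.14 and 0.02 in controls, and again did not pass (adjusted p = 0.0551). In PFC the arrays overlapped, at -0.29, -0.19 and -0.16 with CMS and -0.27, -0.46 and -0.32 in controls.

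Cx3cr1, the receptor for the neuronal chemokine fractalkine, passed in no area. Its values in CC were -0.02, -0.02 and -0.03 with CMS, against -0.5, -0.16 and 0.02 in controls, and in PFC 0.01, 0.08 and 0.08 with CMS, against 0.33, 0.25 and -0.01 in controls. In Amy they were -0.28, -0.2 and -0.05 with CMS, against -0.21, -0.25 and -0.46 in controls, and in Hippo 0.15, 0.34 and 0.25 with CMS, against 0.06, 0.06 and 0.17 in controls. The groups overlapped in all 4 areas, with log2 fold changes between -0.13 and 0.19. These values average 2 probe sets, of which 1450019_at varied little (SD 0.109 over the 24 arrays). The other, 1450020_at, gave 0.407 in CC, -0.287 in PFC, 0.241 in Amy and 0.19 in Hippo, with overlap in each area. Tmem119, a membrane protein that sets microglia apart from other macrophages, overlapped in all 4 areas as well. It stood at 0.42, -0.34 and -0.01 in the CMS Amy and 0.14, 0.01 and 0.07 in the control Amy, and at -0.23, -0.19 and -0.26 in the CMS Hippo and -0.13, -0.49 and -0.45 in the control Hippo. In PFC its values were 0.4, 0.3 and 0.07 with CMS, against -0.1, -0.18 and 0.25 in controls, and in CC 0.18, 0.1 and 0.06 with CMS, against -0.03, 0.18 and -0.7 in controls. Its log2 fold changes ranged between -0.05 and 0.3, with standard errors of up to 0.23.

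Gpr34, a receptor for lysophosphatidylserine on microglia, fell in Hippo, to -0.63, -0.78 and -0.88 with CMS, against -0.55, -0.48 and -0.49 in controls (log2 fold change -0.26, SE 0.07, adjusted p = 0.0453). Its other areas did not pass: PFC had -0.17, -0.33 and -0.52 with CMS, against -0.83, -0.79 and -0.58 in controls (adjusted p = 0.107), and the CMS arrays there lay above the controls. Amy had 0.64, 0.94 and 1.11 with CMS and 0.93, 1.1 and 0.97 in controls, and CC had 0.88, 0.54 and 0.4 with CMS and 0.42, 0.17 and 0.26 in controls, both with overlap. Fcrls, an Fc receptor-like molecule of mouse microglia, fell in Hippo too, to -0.33, -0.3 and -0.25 with CMS, against -0.05, -0.06 and -0.06 in controls (log2 fold change -0.24, SE 0.02, adjusted p = 0.00912). In CC Fcrls lay the other way, at 0.13, 0.16 and 0.25 with CMS and -0.16, -0.09 and -0.44 in controls, without passing (adjusted p = 0.0595). The remaining areas overlapped, with 0.48, -0.08 and 0.09 in the CMS Amy and 0.01, 0.1 and 0.19 in the control Amy, and -0.01, 0.14 and -0.02 in the CMS PFC and 0.03, 0.05 and 0.17 in the control PFC. The call of Gpr34 was kept in 1 of 15 alternatives and was lost without CMS replicate 2 or 3 or any of the 3 control arrays (adjusted p up to 0.122). That of Fcrls was kept in 13 of 15.

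The other homeostatic genes were summarised by their fold changes. Aif1, the calcium-binding protein stained as Iba1, rose in CC (log2 fold change 0.5, SE 0.08, adjusted p = 0.0222), a call lost without any of the 3 CMS arrays or control replicate 2 (adjusted p up to 0.0809). Csf1r rose in Amy (0.21, SE 0.04, adjusted p = 0.0339), a call lost without CMS replicate 2 or any of the 3 control arrays (adjusted p up to 0.117). P2ry13, Siglech and Irf8, the transcription factor that microglial development needs, passed in no area. Their log2 fold changes lay between -0.54, for Siglech in Hippo (adjusted p = 0.159), and 0.27, for Siglech in CC (adjusted p = 0.245).

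Among the 5 phagocytosis and lysosome genes, Ctss and Tyrobp rose and none fell. Both rose in CC and PFC, where 5.95% and 4.45% of all genes rose. Only Ctss rose in Amy, where 10.5% of all genes did. Ctss, which encodes the lysosomal protease cathepsin S, stood at 0.24, 0.27 and 0.27 in the CMS CC, against -0.22, -0.17 and -0.31 in the control CC (log2 fold change 0.49, SE 0.04, adjusted p = 0.00421). In PFC it was at 0.07, 0.09 and 0.13 with CMS, against -0.4, -0.31 and -0.32 in controls (0.44, SE 0.03, adjusted p = 0.00554). Amy had 0.7, 0.67 and 0.67 with CMS, against 0.4, 0.43 and 0.4 in controls (0.27, SE 0.02, adjusted p = 0.00178). These 3 increases were kept in all 15 alternatives. In Hippo the values were -0.07, -0.07 and -0.1 with CMS, against -0.17, -0.26 and -0.14 in controls, and although the CMS arrays lay above the controls the difference did not pass (0.11, adjusted p = 0.0647).

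Tyrobp, the adaptor that carries the signal of Trem2, was at 0.35, 0.52 and 0.46 in the CMS CC, against -0.21, -0.16 and -0.43 in the control CC (log2 fold change 0.71, SE 0.08, adjusted p = 0.00963). In PFC it was at 0.14, 0.15 and 0.23 with CMS, against -0.24, -0.12 and -0.1 in controls (0.33, SE 0.05, adjusted p = 0.0192). Amy had 0.52, 0.51 and 0.34 with CMS, against 0.1, 0.26 and 0.26 in controls, clear of each other but short of the threshold (0.25, adjusted p = 0.0682), and Hippo had -0.4, -0.29 and -0.11 with CMS, against -0.17, -0.12 and -0.12 in controls, with overlap. The CC call was kept in all 15 alternatives, and the PFC one was lost without any of the 3 CMS arrays or control replicate 2 (adjusted p up to 0.0611). Trem2 itself, the receptor, passed in no area, at log2 fold changes of 0.2 in CC, 0.26 in PFC, -0.26 in Amy and -0.07 in Hippo. Cd68, a lysosomal membrane protein, had 0.62 in CC with a standard error of 0.24 (adjusted p = 0.195), and Laptm5, another lysosomal membrane protein of blood-lineage cells, did not pass either.

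**Figure D3:**
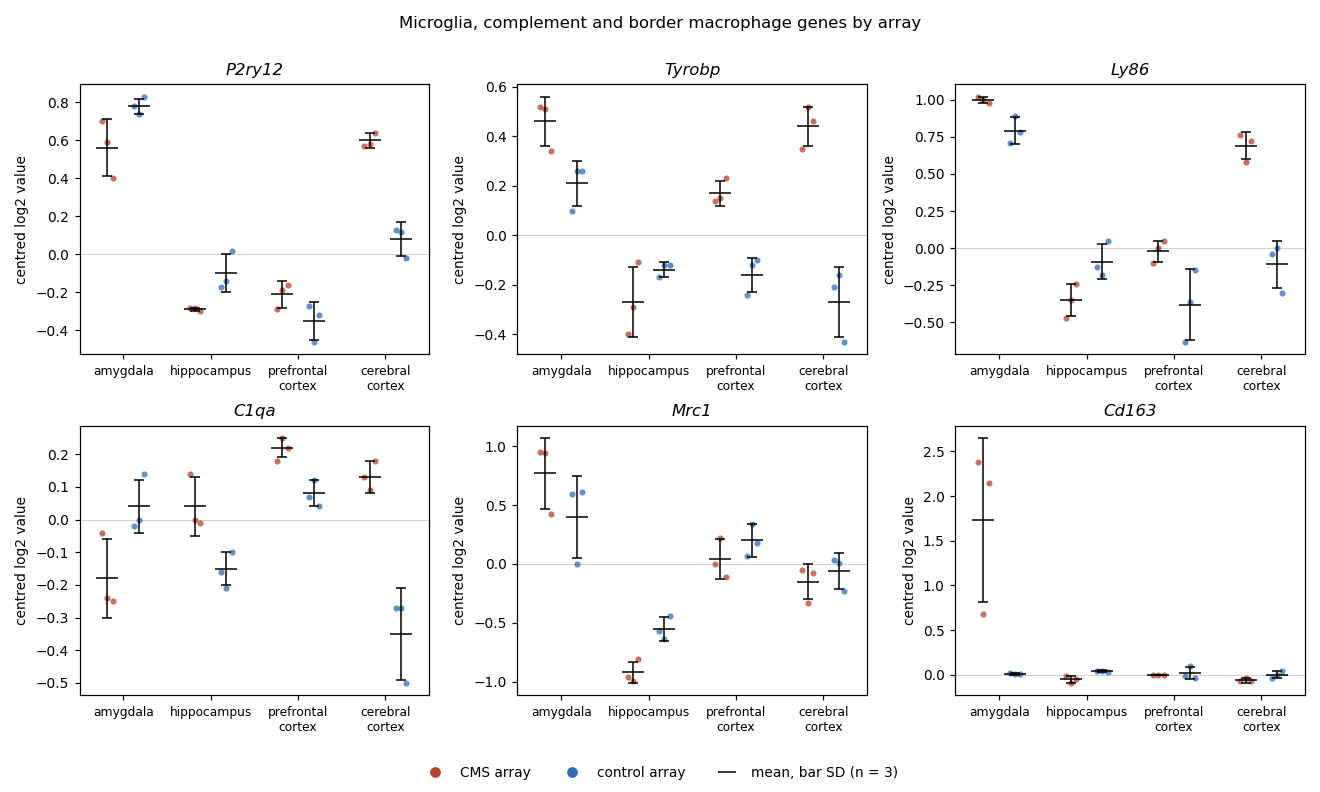
Centred log2 values (vertical axis, its range set for each gene) of P2ry12, Tyrobp, Ly86, C1qa, Mrc1 and Cd163 in each array, CMS in red left of control in blue for each area, with the mean and SD (n = 3). In CC the red points of P2ry12, Tyrobp, Ly86 and C1qa all lie above the blue ones, and Cd163 stands far above 0 in the CMS Amy, at 2.38, 0.68 and 2.15.

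Of the 4 Fc receptor genes, which bind antibody-coated targets, 2 rose in CC, 2 in PFC and 1 in Amy. Over all genes 5.95% rose in CC, 4.45% in PFC and 10.5% in Amy. With 4 genes, the count of 1 in Amy is too small to set apart from that share. Fcgr2b, the inhibitory receptor, stood at 0.25, 0.28 and 0.29 in the CMS CC, against -0.45, -0.21 and -0.41 in the control CC (log2 fold change 0.63, SE 0.07, adjusted p = 0.007). In Amy it stood at 0.44, 0.77 and 0.72 with CMS, against 0.09, 0.16 and 0.23 in controls (0.48, SE 0.1, adjusted p = 0.0314). PFC had 0.25, 0.16 and 0.2 with CMS, against -0.04, -0.1 and -0.2 in controls (0.32, SE 0.05, adjusted p = 0.0236). In Hippo the arrays overlapped, at -0.64, -0.46 and -0.62 with CMS and -0.58, -0.61 and -0.99 in controls. Its 5 probe sets were unequal: 1435477_s_at gave 1.21 in CC and 1.25 in Amy, 1451941_a_at gave 1.33 and 0.27, 1435476_a_at gave 0.15 and 0.59, 1455332_x_at gave 0.5 and 0.3, and 1447622_at, nearly flat over all arrays, gave -0.03 and 0.02. The CC call was kept in all 15 alternatives; the Amy call was lost without CMS replicate 2 or 3 or any of the 3 control arrays (adjusted p up to 0.105), and the PFC one without any of the 3 CMS arrays or control replicate 2 (adjusted p up to 0.0771).

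Fcgr3, an activating Fc receptor, rose by 0.52 in CC (SE 0.06, adjusted p = 0.00768), a call kept in all 15 alternatives. It also rose in PFC (0.28, SE 0.04, adjusted p = 0.0245), but not without CMS replicate 3 or any of the 3 control arrays (adjusted p up to 0.0846). Fcer1g, the signalling chain that activating Fc receptors share, had log2 fold changes between -0.01 and 0.11 and passed in no area, nor did Fcgr1, the high-affinity receptor.

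The 4 genes of innate sensing gave 1 gene that rose, in CC and Amy, where 5.95% and 10.5% of all genes rose. Ly86, which encodes MD-1, a partner of the Toll-like receptor homologue RP105, was at 0.76, 0.58 and 0.72 in the CMS CC, against -0.04, 0 and -0.3 in the control CC (log2 fold change 0.8, SE 0.09, adjusted p = 0.00963). In Amy it was at 1.02, 1 and 0.98 with CMS, against 0.71, 0.89 and 0.78 in controls (0.21, SE 0.05, adjusted p = 0.0448). In PFC the CMS arrays, at -0.1, 0 and 0.05, lay above the control arrays, at -0.63, -0.36 and -0.15, without passing (0.36, adjusted p = 0.165). In Hippo the CMS arrays, at -0.47, -0.35 and -0.24, lay below the control arrays, at -0.13, -0.18 and 0.05, and again did not pass (-0.27, adjusted p = 0.0669). The Amy call was lost without any of the 3 CMS arrays or control replicate 1 or 3 (adjusted p up to 0.135), and the CC call was kept in 14 of 15 alternatives. Cd14, Tlr2 and Tlr4, which sense bacterial products, passed in no area, with Cd14 at 0.51 in Amy (adjusted p = 0.166) and 0.28 in PFC (adjusted p = 0.0612).

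Of the 4 leukocyte surface genes, Cd53, a tetraspanin of blood-lineage cells, rose in PFC, to -0.08, -0.01 and 0.02 with CMS, against -0.33, -0.47 and -0.3 in controls (log2 fold change 0.34, SE 0.05, adjusted p = 0.0254). It rose in CC, to 0.16, 0.26 and 0.15 with CMS, against 0, 0.01 and 0 in controls (0.18, SE 0.04, adjusted p = 0.0354). Over all genes 4.45% rose in PFC and 5.95% in CC. In Amy it was at 0.43, 0.38 and 0.41 with CMS and 0.42, 0.35 and 0.48 in controls, with overlap. Hippo had -0.42, -0.37 and -0.47 with CMS, against -0.15, -0.28 and -0.29 in controls, clear of each other but short of the threshold (-0.18, adjusted p = 0.0509). The PFC call was lost without any of the 3 CMS arrays or control replicate 1 or 3 (adjusted p up to 0.0829), and the CC call without any of the 6 arrays (adjusted p up to 0.101). Ptprc, which encodes the leukocyte phosphatase CD45, had 0.47 in PFC (adjusted p = 0.0744) and 0.34 in CC (adjusted p = 0.0627). The values of Ptprc and Cd53 are each means with a nearly flat probe set. The other probe set of Ptprc, 1422124_a_at, gave 0.918 in PFC, 0.716 in CC, -0.284 in Amy and 0.133 in Hippo. That of Cd53, 1448617_at, gave 0.656, 0.417, -0.089 and -0.302 in the same order. The integrins Itgam and Itgb2, which pair as complement receptor 3, passed in no area, and Itgam had its lowest log2 fold change in Amy (-0.59, adjusted p = 0.0799).

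Among the 5 border macrophage genes, the lysozyme genes rose in all 4 areas, while Mrc1, Cd163 and Lyve1 fell in Hippo, Lyve1 fell in CC too, and none of these 3 rose in any area. Over all genes 24.9% fell in Hippo and 3.99% in CC, while 10.5% rose in Amy, 5.95% in CC, 4.66% in Hippo and 4.45% in PFC. In Amy all 5 had a log2 fold change above 0 (median 0.54, against 0.02 over all genes), and 2 of them passed. The mean of the 5 genes in an array was higher with CMS, without overlap, in all 4 areas. It lay between 0.64 and 0.94 in the CMS Amy, against 0.04 to 0.14 in controls. In PFC it lay between 0.47 and 0.59, against 0.01 to 0.06, and in CC between -0.07 and 0.06, against -0.51 to -0.33. Hippo had -0.31 to -0.23, against -0.42 to -0.37. These means include the lysozyme genes, which many myeloid cells make, and in Amy also Cd163, which did not pass there. Lyz2, the lysozyme of mouse myeloid cells, was at 1.53, 1.74 and 1.74 in the CMS PFC, against 0.12, -0.12 and -0.05 in the control PFC. It was at 0.12, 0.05 and 0.26 in the CMS CC, against -1.17, -1.44 and -1.74 in the control CC. These are log2 fold changes of 1.69 (SE 0.09, adjusted p = 0.00252), or 3.22-fold, and 1.59 (SE 0.15, adjusted p = 0.00551), or 3.02-fold. In Hippo its values were -0.32, 0.18 and -0.16 with CMS, against -1.13, -0.99 and -0.96 in controls (0.93, SE 0.14, adjusted p = 0.0164). In Amy they were 0.59, 0.7 and 0.65 with CMS, against 0.06, -0.24 and -0.12 in controls (0.75, SE 0.08, adjusted p = 0.0071). Without CMS replicate 3, control replicate 1 or control replicate 2 the Hippo call was lost (adjusted p up to 0.0601), and the other areas kept theirs whichever array was left out.

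Lyz1, the neighbouring lysozyme gene, followed it. Its values were 0.87, 0.97 and 0.87 in the CMS PFC, against -0.01, -0.01 and 0.02 in the control PFC (log2 fold change 0.9, SE 0.03, adjusted p = 0.000854). In CC they were 0.1, 0.02 and 0.23 with CMS, against -0.56, -0.65 and -0.71 in controls (0.76, SE 0.07, adjusted p = 0.00454). In Amy they were 0.69, 0.45 and 0.57 with CMS, against 0.01, 0.03 and 0.04 in controls (0.54, SE 0.06, adjusted p = 0.00809). Hippo had -0.18, -0.17 and -0.19 with CMS, against -0.52, -0.46 and -0.51 in controls (0.32, SE 0.02, adjusted p = 0.00493). All CMS arrays lay above all control arrays of their area. Of its 3 probe sets, 1436996_x_at gave 1.43 in PFC and 1.27 in CC, 1439426_x_at gave 1.26 and 1.04, and 1450822_at stayed near 0 (0.03 and -0.03). The suffix x marks probe sets whose probes can bind other transcripts, and Lyz1 and Lyz2 are near-identical copies, so the share of each gene in these signals is uncertain.

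**Figure D4:**
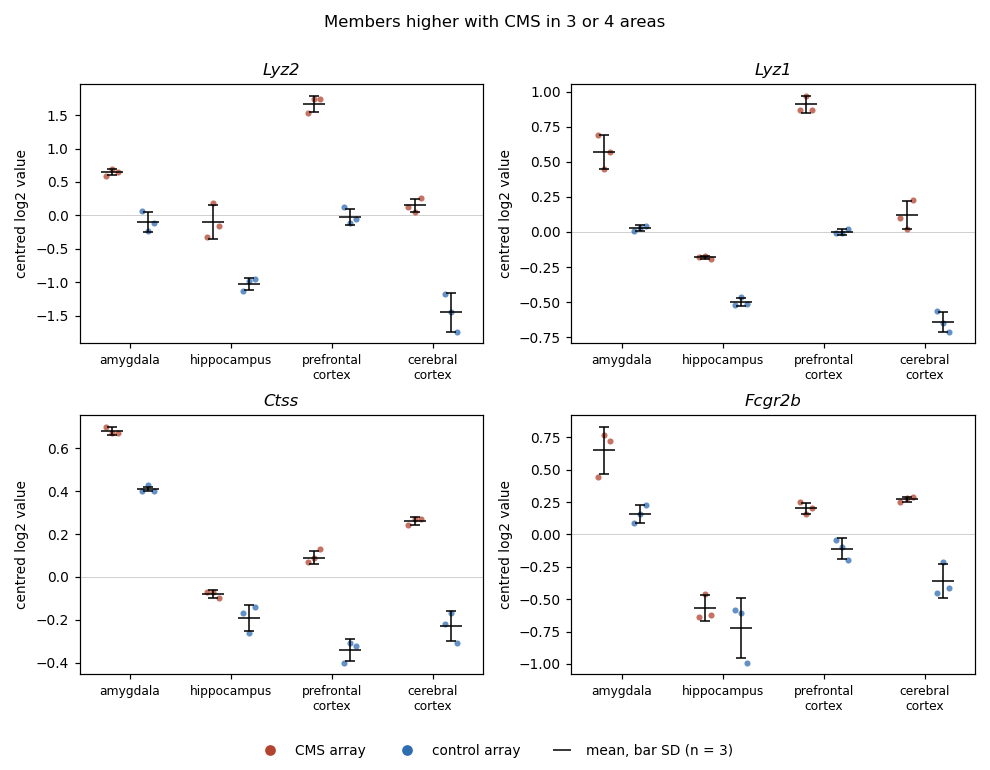
Centred log2 values (vertical axis, its range set for each gene) of Lyz2, Lyz1, Ctss and Fcgr2b in each array, CMS in red left of control in blue for each area, with the mean and SD (n = 3). The red points of Lyz2 and Lyz1 lie above the blue ones in all 4 areas, those of Ctss too, and those of Fcgr2b overlap the blue ones in Hippo.

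Promoters are shown for 4 of the 5 genes that rose in 3 or 4 areas (Lyz2, Lyz1, Ctss and Fcgr2b). They are shown because PU.1, an ETS-family factor on which microglia and other macrophages depend, binds a core of the letters GGAA. The other gene, C1qa, was not among the genes with a match to any of the 5 strings of letters searched below. Whether C1qa had a promoter matched by symbol is not given here. The 4 promoters shown therefore do not stand for all 5 genes. RefSeq promoters on GRCm38.p6 run from 250 bases before to 50 bases after the gene start and were matched for 27 of the 36 genes by symbol. The windows of Lyz2 (chr10:117282223-117282522, minus strand), Lyz1 (chr10:117292819-117293118, minus strand) Ctss (chr3:95526536-95526835, plus strand) and Fcgr2b (chr1:170976022-170976321, minus strand) follow, written along the gene from 5′ to 3′, with matches to GGAAGT on either strand in capitals:
Lyz2: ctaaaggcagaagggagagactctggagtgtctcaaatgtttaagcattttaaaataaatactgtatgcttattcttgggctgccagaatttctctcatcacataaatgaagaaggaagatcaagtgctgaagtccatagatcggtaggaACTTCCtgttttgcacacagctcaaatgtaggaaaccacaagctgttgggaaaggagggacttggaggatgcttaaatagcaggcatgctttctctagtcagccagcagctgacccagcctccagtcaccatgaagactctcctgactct
Lyz1: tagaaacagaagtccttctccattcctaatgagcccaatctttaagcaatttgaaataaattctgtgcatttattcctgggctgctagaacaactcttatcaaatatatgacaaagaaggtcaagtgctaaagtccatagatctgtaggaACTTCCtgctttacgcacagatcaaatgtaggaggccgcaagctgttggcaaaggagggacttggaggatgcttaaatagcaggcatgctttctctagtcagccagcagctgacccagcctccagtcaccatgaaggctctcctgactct
Ctss: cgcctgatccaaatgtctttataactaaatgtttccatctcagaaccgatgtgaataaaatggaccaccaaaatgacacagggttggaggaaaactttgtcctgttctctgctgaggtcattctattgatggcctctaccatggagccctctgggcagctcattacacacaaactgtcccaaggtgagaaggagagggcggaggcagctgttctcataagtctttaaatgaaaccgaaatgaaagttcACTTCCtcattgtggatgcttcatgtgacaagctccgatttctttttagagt
Fcgr2b: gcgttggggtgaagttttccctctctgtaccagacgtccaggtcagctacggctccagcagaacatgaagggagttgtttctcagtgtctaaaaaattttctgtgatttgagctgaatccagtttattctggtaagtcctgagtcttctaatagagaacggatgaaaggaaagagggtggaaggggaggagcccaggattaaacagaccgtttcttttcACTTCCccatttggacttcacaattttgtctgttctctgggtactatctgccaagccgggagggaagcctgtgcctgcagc
In Lyz2 and Lyz1 the capitals begin at the same place, position -100 counted from the start, in Ctss at position -2 and in Fcgr2b at position -31. Read base against base without gaps, the windows of Lyz2 and Lyz1 had 201 of 300 positions identical (67.0%), with 99 of the last 100. GGAAGT was found on either strand in 16 of the 27 promoters (59.3%), against 26.5% of all 27025 promoters of the same length. GAGGAA was found in 16 (59.3%, against 31.3%) and GGGGAA in 10 (37.0%, against 25.7%). The longer strings GAGGAAGT, in 3 promoters (11.1%, against 3.7%), and AGGAAGTG, in 5 (18.5%, against 4.7%), overlap the shorter ones and each other. These matches of letters are descriptions and do not show binding.

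Mrc1, the mannose receptor, fell in Hippo, to -0.96, -0.99 and -0.81 with CMS, against -0.57, -0.64 and -0.44 in controls (log2 fold change -0.37, SE 0.07, adjusted p = 0.0264). Its arrays overlapped elsewhere, at 0.95, 0.94 and 0.42 in the CMS Amy and 0.59, 0 and 0.61 in the control Amy, 0, 0.22 and -0.11 in the CMS PFC and 0.07, 0.34 and 0.18 in the control PFC. CC had -0.05, -0.33 and -0.08 with CMS, and 0.03, 0.01 and -0.23 in controls. Lyve1, a hyaluronan receptor of border macrophages and lymphatic endothelium, fell in Hippo, to -0.06, -0.07 and -0.07 with CMS, against 0.05, 0.05 and 0.02 in controls (-0.11, SE 0.01, adjusted p = 0.0126). It fell in CC, to -0.02, -0.04 and -0.05 with CMS, against 0.07, 0.1 and 0.09 in controls (-0.12, SE 0.02, adjusted p = 0.032). Amy (0.09, 0.46 and 0.19 with CMS, 0.02, 0.41 and 0.01 in controls) and PFC (-0.05, 0 and 0.03 with CMS, -0.02, -0.03 and -0.07 in controls) overlapped.

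Cd163, the haemoglobin scavenger receptor, had the largest log2 fold change of all 144 pairs, in Amy, and did not pass there. Its values were 2.38, 0.68 and 2.15 in the CMS Amy, against 0.02, 0.01 and 0.01 in the control Amy (log2 fold change 1.72, SE 0.48, adjusted p = 0.067). The CMS arrays all lay above the controls but CMS replicate 2 lay far below the other CMS arrays. Without CMS replicate 2 the adjusted p was 0.00412, and without any other array it was between 0.122 and 0.176. A fit of all 24 arrays, which shares 1 estimate of the spread between the groups, gave an adjusted p of 6.56e-05. In Hippo Cd163 fell by 0.09 (SE 0.02, adjusted p = 0.0436), with -0.01, -0.09 and -0.05 with CMS, against 0.04, 0.04 and 0.03 in controls. PFC (0, 0 and 0 with CMS, -0.01, 0.1 and -0.04 in controls) and CC (-0.07, -0.03 and -0.07 with CMS, -0.03, 0 and 0.04 in controls) overlapped.

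The hippocampal decreases were small and stood among many. The log2 fold changes of the 5 genes that fell there lay between -0.37 and -0.09, in an area where 24.9% of all genes fell. Probe sets of these genes' list that hardly vary over the 24 arrays moved there too, such as 1450822_at of Lyz1 (-0.05), 1447622_at of Fcgr2b (-0.05), 1440165_at of Ptprc (-0.06) and 1459744_at of Cd53 (-0.06). Among all genes that passed in Hippo 84.3% were lower. This became 61.6% after median centring and 60.1% after quantile normalization, where 2 and 3 of the 36 genes were lower. Of all genes tested, 6.23% and 7.09% were then lower. The calls of Mrc1, Cd163 and Gpr34 were kept in 7, 2 and 1 of 15 alternatives, and those of Lyve1 in 9 of 14. Leaving out arrays, Mrc1 was lost without any array but control replicate 3 (adjusted p up to 0.0796), Cd163 without any array (up to 0.125), and Lyve1 without CMS replicate 3 or control replicate 1 (up to 0.0557). In CC Lyve1 was lost without any array but control replicate 3 (up to 0.132). The share of lower calls over all genes moved in the other areas too with median centring, to 58.3% in Amy, against 45.6%, to 57.0% in PFC, against 46.9%, and to 28.1% in CC, against 40.1%.

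Among the 4 complement genes, C1qa rose in 3 areas (CC, PFC and Hippo) and C1qb in 1 (CC). Over all genes 5.95% rose in CC, 4.45% in PFC and 4.66% in Hippo. C1qa, which encodes the A chain of C1q, was at 0.13, 0.09 and 0.18 in the CMS CC, against -0.27, -0.27 and -0.5 in the control CC (log2 fold change 0.48, SE 0.07, adjusted p = 0.0192). In Hippo it was at 0.14, 0 and -0.01 with CMS, against -0.16, -0.21 and -0.1 in controls (0.2, SE 0.05, adjusted p = 0.0476). PFC had 0.18, 0.25 and 0.22 with CMS, against 0.07, 0.12 and 0.04 in controls (0.14, SE 0.03, adjusted p = 0.0462). In Amy the CMS arrays, at -0.04, -0.24 and -0.25, lay below the control arrays, at -0.02, 0 and 0.14, without passing (-0.22, adjusted p = 0.11). The B chain gene C1qb rose by 0.31 in CC (SE 0.03, adjusted p = 0.00714), and its most variable probe set alone gave 0.19 (adjusted p = 0.154). Of its 3 probe sets, 1417063_at, which varied almost as much, gave 0.54 in CC with the CMS arrays clear of the controls, and the other two gave 0.19 each. The C chain gene C1qc had 0.58 there, above all controls, but did not pass (SE 0.15, adjusted p = 0.0794). C3ar1, the receptor for the C3a fragment, passed in no area. The hippocampal and PFC calls of C1qa were each kept in 1 of 15 alternatives and lost without any array (adjusted p up to 0.125 and 0.133), and the CC call was lost without any of the 3 CMS arrays (up to 0.0715).

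Levels in control mice differed between areas for 29 of the 36 genes (80.6%), where 58.1% of all genes did (moderated F test over the 12 control arrays). Of the 29, 21 were highest in Amy, 6 in PFC, 1 in Hippo and 1 in CC. The lowest area was Hippo for 10, CC for 10, PFC for 8 and Amy for 1. These splits were not counted over all genes, so they are not shown to be particular to the 36 genes. Gpr34 averaged 1 ± 0.09 (SD, n = 3) in the control Amy, 0.28 ± 0.13 in CC, -0.51 ± 0.04 in Hippo and -0.73 ± 0.13 in PFC (adjusted p = 1.87e-07), an order in which each step is larger than the SD of either neighbour. P2ry12 averaged 0.78 ± 0.04 in Amy, 0.08 ± 0.09 in CC, -0.1 ± 0.1 in Hippo and -0.35 ± 0.1 in PFC. Lyz2 had another order, with -0.02 ± 0.12 in PFC and -0.1 ± 0.15 in Amy, which did not differ beyond their spread, then -1.03 ± 0.09 in Hippo and -1.45 ± 0.29 in CC. The control CC was also the lowest area for C1qa, C1qb and C1qc.

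**Figure D5:**
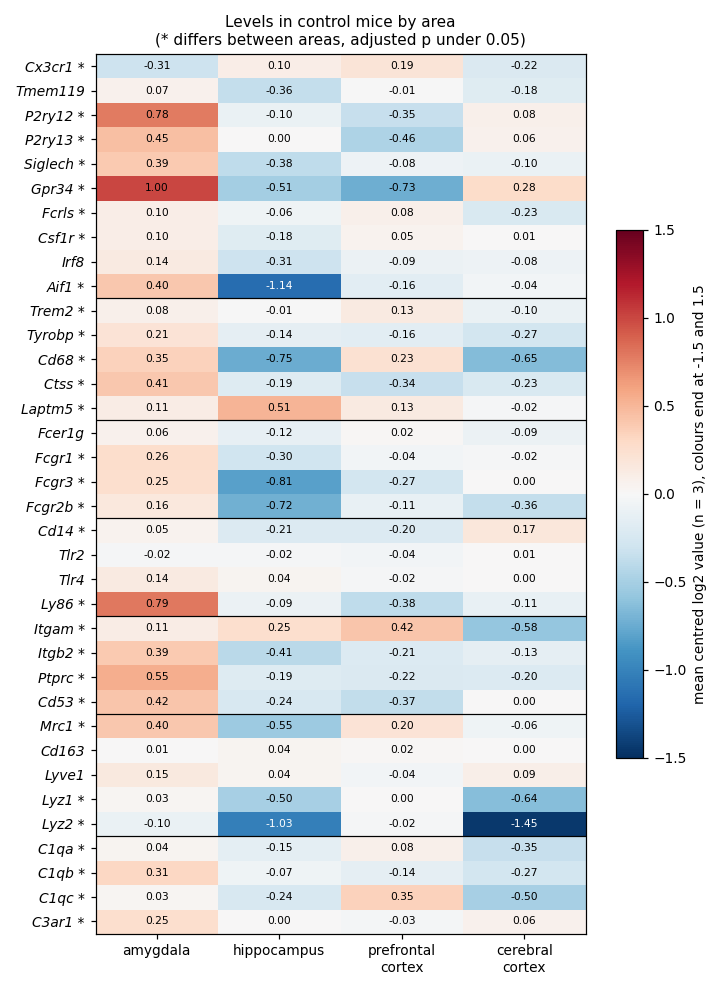
Mean centred log2 value (n = 3 control arrays, printed in each cell and coloured, red above 0 and blue below) of the 36 genes in the 4 areas (columns), grouped by role; a star marks genes whose level differed between areas. The Amy column is the reddest, being the highest area for 21 of the 29 starred genes, a split not counted over all genes. Lyz2 in CC is the deepest blue, at -1.45.

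The CMS effect differed between areas for 19 of the 36 genes (52.8%), where 52.3% of all genes did (moderated F test of the interaction over 24 arrays). The count thus lay at the share of all genes. The effect was highest in CC for 11, in PFC for 6 and in Amy for 2, and lowest in Hippo for 11, in Amy for 7 and in CC for 1. These splits were not counted over all genes either. P2ry12 (adjusted p = 2.52e-05) had log2 fold changes of 0.52 in CC, 0.14 in PFC, -0.19 in Hippo and -0.22 in Amy. Lyz2 (adjusted p = 0.000799) had a positive effect in every area, of 1.69 in PFC, 1.59 in CC, 0.93 in Hippo and 0.75 in Amy. For Aif1 and Mrc1 the difference between areas did not pass (adjusted p = 0.061 and 0.0517).

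Other genes of the same cells and pathways were counted from lists of their own. Beside these counts, 5.95% of all genes rose and 3.99% fell in CC, 4.45% and 3.92% in PFC, 10.5% and 8.84% in Amy, and 4.66% and 24.9% in Hippo. Of 13 further microglia genes measured, 3 rose in CC, 1 rose and 1 fell in PFC, 1 rose and 1 fell in Hippo, and 1 fell in Amy. Tgfbr1, a receptor for transforming growth factor beta, had log2 fold changes of 0.65 in CC (adjusted p = 0.0333) and 0.33 in PFC (adjusted p = 0.0306). Mertk, a receptor for the uptake of dying cells, had 0.35 in CC (adjusted p = 0.01) and 0.28 in Hippo (adjusted p = 0.0172). Of 13 genes of activated microglia, 1 rose and 1 fell in CC, 1 rose and 2 fell in Amy, 2 fell in Hippo and none passed in PFC. Cd9, a tetraspanin, rose in CC (0.53, adjusted p = 0.00354) and fell by 0.49 in Amy (adjusted p = 0.00279). Of 7 genes listed as microglial ligands, none rose, and 2 fell in CC, 2 in Amy and 1 in PFC. The list includes Sirpa, which encodes a receptor for Cd47 and not a ligand. Sirpa was 1 of the 2 that fell in Amy (-0.35, adjusted p = 0.0316) and the 1 that fell in PFC (-0.14, adjusted p = 0.0229). Cx3cl1, the ligand of Cx3cr1, fell by 0.34 in CC (adjusted p = 0.0486) and by 0.1 in Amy (adjusted p = 0.0078).

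Of 12 further border macrophage genes, Cbr2, a carbonyl reductase, rose by 3.09 in PFC (SE 0.12, adjusted p = 0.00102) and was the only gene of its list past the fold. It was also the only gene of the 12 that passed in PFC, where the median of the list was 0.07. Its increase thus describes 1 gene and not the list. Cd36, a scavenger receptor also found on vessels, fell by 0.96 in Amy (adjusted p = 0.00636). In Amy 0 of the 12 rose, and the median of the list was 0.02, as it was over all genes. Stab1 fell by 0.29 in CC (adjusted p = 0.0215), and 1 of the 12 rose and 2 fell in Hippo. Of 28 further complement genes, 4 rose in Amy and 2 rose in CC, with 1 falling there, while 1 rose and 1 fell in PFC and 1 rose and 9 fell in Hippo (32.1% lower, where 24.9% of all genes were lower). The median log2 fold change of the 28 genes in Hippo was -0.05, as it was over all genes. Serping1, the inhibitor of the C1 complex, rose by 0.86 in Amy (adjusted p = 0.0167) and by 0.85 in CC (adjusted p = 0.0195). The protease gene C1ra rose by 0.77 in Amy (adjusted p = 0.0383). Cfp, which encodes properdin, fell by 0.29 in CC (adjusted p = 0.028).

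Markers of other cells moved too. Over all genes 5.95% rose and 3.99% fell in CC, and 4.45% and 3.92% in PFC. In Amy 10.5% rose and 8.84% fell, and in Hippo 4.66% and 24.9%. These shares stand beside the counts of every marker list below. Of 7 neutrophil genes, 7 rose in PFC, 2 in Amy, 2 in CC, and 1 in Hippo, where 1 fell. The mean of the 7 genes in an array lay between 4.39 and 4.51 in the CMS PFC, against 0.92 to 1.04 in the control PFC. It lay between 0.52 and 0.7 in the CMS CC, against -0.42 to -0.41 in controls, between 0.27 and 0.52 in the CMS Amy, against -0.56 to -0.37 in controls, and between -0.34 and -0.26 in the CMS Hippo, against -0.53 to -0.5 in controls. S100a8, the calgranulin gene abundant in neutrophils, rose by 3.57 in PFC, 3.6 in CC, 2.97 in Amy and 1.43 in Hippo. The granule genes Ngp, Camp, Ltf and Lcn2 rose in PFC by between 3.54 and 5.3, and in no other area. Of 4 monocyte genes, 1 rose in PFC (Chil3, by 3.1), 1 in Amy and none in the other areas. Of 4 genes of red blood cells, 2 rose in PFC, 1 in CC and 1 in Amy, and 1 fell in Hippo. The part of these cells in the lysozyme increase was not tested.

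The choroid plexus genes, which mark a tissue that holds border macrophages, fell in the cortical areas: 8 of 8 in CC and 5 of 8 in PFC, with 1 of 8 falling and 2 rising in Amy and 2 rising in Hippo. Their mean lay between -1.45 and -1.36 in the CMS CC, against 2.04 to 2.24 in the control CC, and between -1.31 and -1.23 in the CMS PFC, against 0 to 0.22 in the control PFC. In CC 3 of 7 astrocyte genes, 4 of 6 oligodendrocyte genes and 2 of 7 neuron genes rose beside the microglia genes and none of these fell. The mean of the 27 microglia genes lay between 0.18 and 0.25 there with CMS, against -0.19 to -0.07 in controls, and that of the astrocyte genes between 0.02 and 0.04 with CMS, against -0.25 to -0.19 in controls. In Amy 6 of 6 oligodendrocyte genes and 4 of 7 astrocyte genes fell, 4 of 7 neuron genes rose, and the mean of the microglia genes overlapped between CMS (0.27 to 0.35) and control (0.26 to 0.29). In PFC 5 of 6 oligodendrocyte genes fell, 1 astrocyte gene rose and 2 fell, and 1 neuron gene rose. In Hippo 2 oligodendrocyte genes rose and 1 fell, 2 astrocyte genes fell, 3 neuron genes rose and 1 fell. The genes that fell were 16.7% of the oligodendrocyte, 28.6% of the astrocyte and 14.3% of the neuron genes. Over all genes 24.9% fell in Hippo, so these decreases lay near that share or below it. Of 6 endothelial genes, 3 rose in Amy, 3 rose and 1 fell in Hippo, 2 rose in PFC and 1 rose and 1 fell in CC. The 8 meningeal fibroblast genes gave 1 or 2 rising and 1 to 3 falling in each area. Of 6 lymphocyte genes, 3 fell in Hippo, where 24.9% of all genes fell, with log2 fold changes of the 6 between -0.12 and 0.04 (median -0.04), and none passed in the other areas. The part of cell makeup or dissection in the microglia and complement results was not tested.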

How the data were processed

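RNA of 4 brain areas was measured on 24 Affymetrix arrays. The authors summarized them with GCRMA in GeneSpring GX and applied a normalization called baseline to mean (software versions not given in the sources used here). Deposited log2 values are centred so that each probe set has a median of 0 over the arrays, so brightness and levels between genes cannot be read, and precision is limited by the number of arrays. The 64 control probe sets were left out. Of the other 45037 probe sets, 34945 had 1 gene symbol in the platform annotation, 932 several and 9160 none, and probe sets of 1 gene were averaged. Of all tested probe sets, 34.8% had an SD under 0.1 over the 24 arrays.

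Within each area, CMS arrays were set against control arrays in limma (version 3.58.1, R 4.3.3), two-sided, with Benjamini-Hochberg adjustment over 18193 genes. Moderated F tests over 24 and over the 12 control arrays compared the areas, with arrays of different areas taken as independent. The members, the lists of further microglia, ligand, activation, border macrophage, complement and cell type genes, and the tests were chosen with earlier results of these data known. Array values are given for genes past the fold, for up to 4 genes per area and direction with the largest changes among those that passed without overlap, and for Cx3cr1, P2ry12, Tmem119, C1qa, Mrc1, Cd163, Lyve1 and Lyz2; the rule also names C3 and C4b, which have no value here. Other genes are named with their fold change.

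The alternatives were the methods' t-test, all 24 arrays in 1 fit, quantile normalization, median centring, the less variable genes left out, robust variance, the most variable probe set per gene, a replicate block and leaving out each array. Leaving out flat probe sets (SD under 0.1) was added after seeing the data. Simulated data with the arrays' own spread tested the scripts: of genes changed by 0.6 on the log2 scale among 18193, 77.6% (Amy), 71.6% (Hippo), 80.6% (PFC) and 79.1% (CC) were recovered, and of genes changed by 0.3, 50.7%, 59.7%, 52.2% and 55.2%. Plots used matplotlib 3.10.9 (Python 3.11.15).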

Additional observations from a re-analysis of the deposited data

Results flagged for a closer look

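The CMS effect differed between the 4 areas, by the moderated F test of the interaction, for 19 of the 36 genes (52.8%), where 52.3% of all genes did. The count thus lay at the share of all genes, and a difference between areas is not particular to these genes. Among genes of homeostatic microglia these were P2ry12 (adjusted p = 2.52e-05), Fcrls (0.0107), Gpr34 (0.0129) and Csf1r (0.0156). P2ry12 and Fcrls had their highest effect in CC, Gpr34 in PFC and Csf1r in Amy. Among phagocytosis and lysosome genes they were Ctss (adjusted p = 3.19e-05), Tyrobp (9.41e-05), Trem2 (0.00951) and Cd68 (0.0222). Trem2 and Cd68 passed in no single area. Among Fc receptors and innate sensing genes they were Ly86 (adjusted p = 0.000154), Fcgr3 (0.00343) and Fcgr2b (0.0336), each with its highest effect in CC. Among leukocyte surface genes, Cd53 (adjusted p = 5.52e-05) and Ptprc (0.0051) had their highest effect in PFC.

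Among border macrophage genes they were Lyz1 (adjusted p = 5.29e-05), Lyz2 (0.000799) and Cd163 (0.00118). Lyz1 and Lyz2 had their highest effect in PFC, and Cd163 in Amy, where its 3 CMS arrays differed widely. Among complement genes they were C1qa (adjusted p = 0.000127), C1qb (0.000182) and C1qc (0.00386), with the highest effect of all 3 in CC. What lies behind these differences between areas was not tested.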

How the results depend on the processing

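Of the 35 pairs of gene and area that passed, 11 were kept in every alternative: Ctss in Amy, PFC and CC, Lyz1 and Lyz2 in both cortical areas, and P2ry12, Tyrobp, Fcgr3 and Fcgr2b in CC. No pair turned its direction. In Amy, 6 genes rose, against 1 with the replicate block. There 0 fell, against 1 with the less variable genes left out and 4 with all 24 arrays. Of all genes, 10.5% rose there, against 2.79% with the replicate block. The share of all genes that fell was 8.84%, against 15.3% with the less variable genes left out and 12.3% with all 24 arrays. Past the fold there, 0 genes became 1 with the less variable genes left out, 1 with flat probe sets left out and 1 with all 24 arrays (Cd163 in each), and 2 with the most variable probe set (Fcgr2b and Lyz1). In Hippo, 3 genes rose, against 0 with the replicate block, and 5 fell, against 3 with quantile normalization, 2 with median centring, 2 with the less variable genes left out, 3 with the most variable probe set, 2 with flat probe sets left out, 0 with the replicate block and 2 with all 24 arrays. In PFC, 8 genes rose, against 3 with the methods' t-test and 3 with the replicate block. Of all genes, 4.45% rose there, against 1.61% with the methods' t-test and 0.22% with the replicate block. The 1 gene past the fold became 2 with quantile normalization, 2 with the most variable probe set and 2 with flat probe sets left out (Lyz1 joined Lyz2). In CC, 12 genes rose, and the 1 that fell became 0 with median centring, the less variable genes left out, the most variable probe set, flat probe sets left out, the replicate block and all 24 arrays. Of all genes, 3.99% fell there, and 2.08%, 6.02%, 3.68%, 4.63%, 0.885% and 9.97% in the same order. The 1 gene past the fold there became 3 with the most variable probe set and 2 with flat probe sets left out. Shares of all genes past the fold in the alternatives are not given here. The causes of these changes in counts were not tested.

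Leaving out each array in turn, 3 to 5 genes rose and 0 to 2 fell in Amy, 1 to 3 rose and 1 to 4 fell in Hippo, 3 to 5 rose and 0 fell in PFC, and 9 to 14 rose and 0 to 1 fell in CC. Of all genes, 3.47% to 10.0% rose and 4.37% to 10.1% fell in Amy, and 1.43% to 5.93% and 3.61% to 27.6% in Hippo. In PFC 1.48% to 3.13% rose and 1.27% to 2.51% fell, and in CC 2.44% to 5.73% and 1.06% to 5.79%. Past the fold there were 0 to 1 genes in Amy, 0 to 1 in Hippo, 1 in PFC and 1 in CC. The CMS effect differed between areas for 18 to 21 genes and the control level for 25 to 30. Shares of all genes for these last counts are not given here.

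Array numbers did not pair the samples: CMS and control arrays of 1 number in an area correlated between -0.065 and 0.027 in their deviations, and the consensus correlation of the mouse block was -0.092. The replicate block kept 11 of the 35 pairs, with fewer degrees of freedom. Background correction and slide could not be varied, since scanner files were not used here, and signal over background is lost in the centring.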
